A study of Mus musculus with 6 samples.

Results

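The genes described here are 9 regulators of the Sertoli cell, the somatic nurse cell of the seminiferous tubule: the transcription factors Sox9, Sox8, Wt1, Gata1, Gata4, Dmrt1 and Nr5a1, the receptor for follicle-stimulating hormone Fshr, and the homeobox factor Rhox5. They were chosen by name and matched to 9 of the 50763 gene symbols of the count table. The counts come from whole testes of mice at postnatal day 14. Poly(A) RNA was sequenced from 3 wild-type samples (WT) and from 3 samples labelled sKO, in which Rif1 was deleted conditionally in germ cells ahead of meiosis. RIF1 is a protein of DNA break repair and of replication timing. The labels give neither the Cre driver nor the strain nor any allele carried by the WT animals. They also do not state that each sample was a different animal, so the p-values reflect the spread among the 6 libraries, part of which may be technical.

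SOX9, switched on by SRY, directs the bipotential gonad towards a testis, and its paralog SOX8 helps to keep that state. WT1, GATA4 and NR5A1 (also called SF-1) act upstream of SOX9 and later with it on genes such as Amh, while DMRT1 guards the male identity of Sertoli cells after birth and also acts in spermatogonia. Follicle-stimulating hormone reaches the testis through FSHR on Sertoli cells alone, and testosterone drives Sertoli genes such as Rhox5. GATA1 is best known from red blood cell development, and in the testis it is found in Sertoli cells. GATA4 and NR5A1 are also made by Leydig cells, and WT1 by the mesothelium that covers the testis.

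All 9 genes were well covered, with 450 to 5142 counts per library, and all 9 passed the filter on low counts. Their summed counts made up 0.105% to 0.118% of the counts of a WT library and 0.126% to 0.136% of those of an sKO library. Scaled to the library total (CPM, the usual read-depth unit, with TMM factors), the estimates of all 9 were higher in sKO, by 1.04-fold to 1.23-fold (55.3% of all tested genes had positive estimates), but 4 of the 9 (Gata1, Dmrt1, Nr5a1 and Rhox5) turned negative when libraries were scaled to other Sertoli genes. edgeR called 0 of them at an adjusted p under 0.05, against a background of 0.0318% of 18860 tested genes called higher and 1.27% called lower. At an unadjusted p under 0.05, 4 of the 9 were higher and 0 lower, against 5.06% and 8.54% of all tested genes, and DESeq2 and limma-voom likewise called 0 after adjustment. The median log2 fold change of the 9 was 0.23, beside 0.03 over all tested genes.

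Promoter sequences were matched for Fshr, Sox8, Gata1 and Rhox5, so 4 of the 9 (RefSeq, GRCm38.p6). Those of Fshr and Sox8 are shown because their starts coincide with the start of the gene in the GENCODE annotation, and because Fshr is the hormone receptor of the set. The sequences are the 250 bases before the start on the gene's own strand, read 5′ to 3′. Capitals mark matches to any of 5 motifs searched on both strands: GATAA (bound by GATA factors), AAGGTCA (NR5A1), AACAAT (SOX factors), CACGTG (an E-box, bound by bHLH factors) and GCGTGGG (WT1).
Fshr, chr17:89200676-89200925, minus strand: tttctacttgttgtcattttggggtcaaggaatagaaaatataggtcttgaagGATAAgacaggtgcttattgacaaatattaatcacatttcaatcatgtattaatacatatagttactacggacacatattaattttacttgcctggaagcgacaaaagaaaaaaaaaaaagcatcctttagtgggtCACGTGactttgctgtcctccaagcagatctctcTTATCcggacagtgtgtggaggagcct
Sox8, chr17:25570687-25570936, minus strand: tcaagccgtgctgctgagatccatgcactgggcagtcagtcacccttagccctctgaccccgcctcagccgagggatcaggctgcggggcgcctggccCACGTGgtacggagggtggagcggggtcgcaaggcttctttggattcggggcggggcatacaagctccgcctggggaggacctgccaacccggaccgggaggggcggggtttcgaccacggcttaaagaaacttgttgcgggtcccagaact

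The Fshr window held the E-box from 61 bases before the start, and GATAA from 197 bases before it and, on the opposite strand (read as TTATC), from 27 bases before it. The Sox8 window held the E-box from 152 bases before the start. Over the 32851 promoter windows of the RefSeq table, cut to the same length, 22.6% held GATAA, 6.02% CACGTG, 9.42% AACAAT, 4.08% AAGGTCA and 4.30% GCGTGGG. No 2 of these motifs overlapped in the printed windows. A match is a description of letters and not of a bound site. The table's windows for Gata1 and Rhox5 lie 10161 bases downstream and 50234 bases upstream of the GENCODE gene start, and are not printed.

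Rif1 itself stood at 96.5, 83.7 and 129 CPM in WT 1 to 3 and at 42.0, 46.4 and 49.2 CPM in sKO 1 to 3 (log2 fold change -1.17, SE 0.15, edgeR adjusted p = 0.0145). It was 0.137 without WT 2, 0.0618 without sKO 1 and 0.120 without sKO 2. Total counts per library ranged from 15941672 to 18296594, and 3 counts, the limit that a count of 0 allows, came to 0.165 to 0.187 CPM (counting error only). All 22 genes of a Sertoli reference list that holds 0 of the 9 regulators, among them Amh, Cldn11, Clu and Inha, were expressed and tested, so the presence of Sertoli RNA does not rest on the 9. In RNA of a whole testis, a larger share of Sertoli cells and more RNA per Sertoli cell cannot be told apart. Markers of the neighbouring epididymis and rete summed to 163 CPM in sKO 1 and to 4.26 to 22.1 CPM in the other libraries, with Lcn9 at 0 in all 6.

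The SOX factors came first. Sox9 (chromosome 11) stood at 108, 111 and 112 CPM in WT 1 to 3 and at 119, 134 and 144 CPM in sKO 1 to 3. Every sKO library was above every WT library, and the WT libraries were nearly equal. The log2 fold change was 0.26 (SE 0.10, 95% interval 0.05 to 0.47), with an unadjusted p of 0.0194 and an edgeR adjusted p of 0.243. Sox8 (chromosome 17) stood at 73.2, 82.9 and 73.3 CPM in WT and at 95.7, 92.9 and 90.6 CPM in sKO. Its groups did not overlap either, with the tightest sKO values of the 9 relative to their mean. The log2 fold change of Sox8 was 0.28 (SE 0.09, 95% interval 0.08 to 0.49, edgeR adjusted p = 0.188). Sox8 shares 329 exonic bases with the antisense long noncoding RNA Cerox1 in GENCODE, and no source states whether strand was used in counting. If strand was not used, reads there cannot be assigned to either gene. Cerox1 had 157 to 198 counts per library.

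The balance between these paralogs was alike in the groups. The ratio of Sox9 to Sox8 CPM was 1.48, 1.34 and 1.53 in WT 1 to 3 and 1.24, 1.44 and 1.60 in sKO 1 to 3. The ranges overlapped (exact two-sided permutation p = 0.9, adjusted over 2 ratios 0.9). Without sKO 3, the library with most Sox9, the log2 fold change of Sox9 was 0.16.

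**Figure D1:**
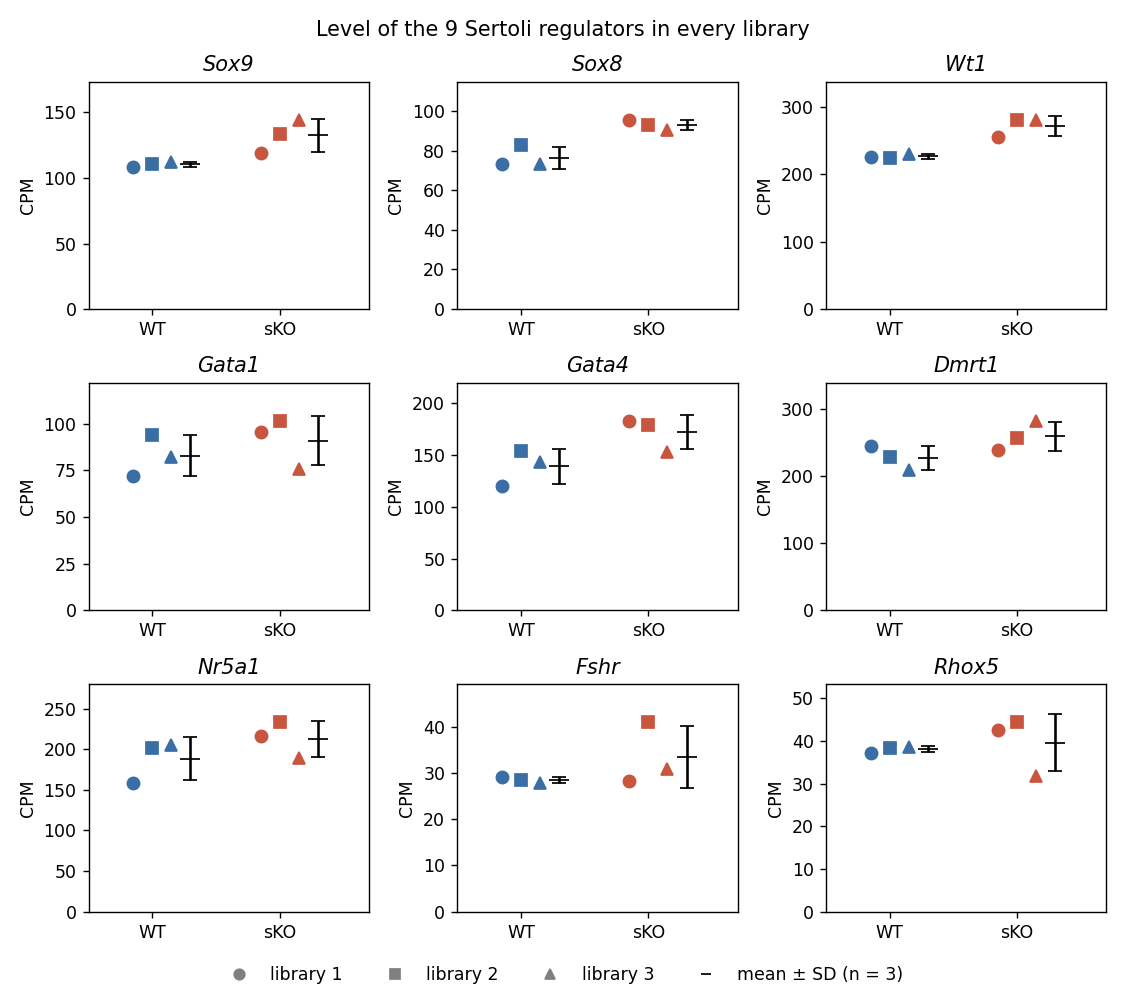
CPM (TMM-scaled; linear axis from 0) of each of the 9 genes in the 3 WT libraries (blue) and the 3 sKO libraries (red), with mean ± SD (n = 3) in black. In Sox9, Sox8 and Wt1 every sKO library lies above every WT library, while in the other 6 genes the groups overlap.

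Wt1 (chromosome 2), a zinc finger factor needed for gonad formation and for Sertoli cell maintenance, was the gene of the 9 with the smallest p. It stood at 226, 223 and 230 CPM in WT 1 to 3 and at 254, 279 and 281 CPM in sKO 1 to 3. The WT values differed by no more than counting error gives, with a coefficient of variation of 1.49% against 1.54% from counting alone. The log2 fold change was 0.26 (SE 0.08, 95% interval 0.08 to 0.45), with an unadjusted p of 0.0102 and an edgeR adjusted p of 0.181. Mesothelial markers, whose cells also make WT1, summed to 24.4 CPM in sKO 1 and to 5.97 to 8.72 CPM in the other libraries, and all 5 were detected. In sKO 1, Wt1 was the lowest of the sKO libraries but above every WT library. The part of the mesothelium in the level of Wt1 was not tested. Thus 3 of the 9 genes (Sox9, Sox8 and Wt1) had every sKO library above every WT library, against 9.58% of all tested genes, and 0 of the 9 had the opposite, against 10.7%.

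The GATA zinc finger factors varied more between libraries. Gata4 (chromosome 14) stood at 120, 153 and 144 CPM in WT 1 to 3 and at 183, 179 and 153 CPM in sKO 1 to 3. Its groups touched, since sKO 3 was at the level of WT 2. Its log2 fold change was 0.30 (SE 0.11, 95% interval 0.05 to 0.55, unadjusted p = 0.0217, edgeR adjusted p = 0.254), the largest of the 9 with all libraries. It was 0.21 without WT 1, below Wt1 at 0.26, and 0.15 without the WT and sKO libraries numbered 1, where Fshr had 0.33. Gata1 (chromosome X) stood at 72.1, 94.0 and 82.1 CPM in WT and at 95.4, 102 and 76.0 CPM in sKO. The groups overlapped widely, with sKO 3 below WT 2 and WT 3. The log2 fold change of Gata1 was 0.14 (SE 0.13, 95% interval -0.15 to 0.43, edgeR adjusted p = 0.699), and -0.0047 without the WT and sKO libraries numbered 1.

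Gata1 is also a gene of red blood cell precursors, megakaryocytes and mast cells. Erythroid markers summed to 58.4 to 137 CPM in WT and 59.4 to 94.4 CPM in sKO, mostly from globins, and the precursor gene Klf1 was at 0.435 to 0.961 CPM. Mast cell and megakaryocyte markers summed to 8.52 to 14.2 CPM, with Fcer1a at 0 in every library. Gata1 was lowest in WT 1, where the erythroid sum was highest, but among sKO libraries both were lowest in sKO 3. The mast cell and megakaryocyte sum was lowest of its group in WT 1 (8.69 CPM) and in sKO 3 (8.52 CPM), as Gata1 was. The part of these cells in the level of Gata1 was not tested. The ratio of Gata4 to Gata1 CPM was 1.67, 1.63 and 1.75 in WT 1 to 3 and 1.92, 1.77 and 2.01 in sKO 1 to 3. It was higher in every sKO library, but at 3 against 3 the exact two-sided permutation p of 0.1 is the smallest the design allows (0.2 adjusted over the 2 paralog ratios). Of all 36 pairs among the 9 genes, 3 had ratios that did not overlap between the groups, this pair included. With group labels drawn at random, a single ratio would separate with a probability of 0.1. All 3 pairs hold Gata4 (with Gata1, Nr5a1 and Rhox5), so they are not separate observations. The share over pairs of other genes was not computed. The adjustment does not cover those 36.

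Nr5a1 (chromosome 2), a nuclear receptor of Sertoli and Leydig cells, stood at 158, 202 and 205 CPM in WT 1 to 3 and at 216, 233 and 189 CPM in sKO 1 to 3. WT 1 was low and sKO 3 fell among the WT libraries. Its log2 fold change was 0.18 (SE 0.12, 95% interval -0.09 to 0.44, edgeR adjusted p = 0.561), and 0.07 without WT 1. The 9 Leydig markers summed to 227, 283 and 323 CPM in WT and to 459, 323 and 425 CPM in sKO, all detected. They did not move together: 6 had positive and 3 negative estimates (-0.54 to 1.83), and edgeR called 0. Their part in the level of Nr5a1 was not tested. Dmrt1 (chromosome 19) stood at 245, 228 and 209 CPM in WT and at 240, 258 and 283 CPM in sKO. WT 1 exceeded sKO 1, and sKO 3 was the highest. The log2 fold change of Dmrt1 was 0.19 (SE 0.10, 95% interval -0.03 to 0.41, edgeR adjusted p = 0.437), and 0.09 without sKO 3. Spermatogonial markers, from the germ cells that also make DMRT1, summed to 590, 626 and 639 CPM in WT 1 to 3. In sKO 1 to 3 they summed to 629, 623 and 680 CPM, and all 11 were detected. Among sKO libraries both this sum and Dmrt1 were highest in sKO 3, but over WT 1 to 3 they ran in opposite order. The part of spermatogonia in the level of Dmrt1 was not tested.

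The hormone-linked genes had the lowest counts. Fshr had the widest interval, and that of Rhox5 was about as wide as that of Gata1 (SE 0.13 for both). Fshr (chromosome 17) stood at 29.3, 28.6 and 28.0 CPM in WT 1 to 3 and at 28.4, 41.1 and 31.0 CPM in sKO 1 to 3. Only sKO 2 stood clearly apart, and sKO 1 lay within the WT range. The log2 fold change was 0.23 (SE 0.14, 95% interval -0.09 to 0.54, edgeR adjusted p = 0.529), and 0.06 without sKO 2. Rhox5 (chromosome X), the androgen-driven homeobox gene, stood at 37.2, 38.4 and 38.6 CPM in WT and at 42.5, 44.4 and 31.9 CPM in sKO. The sKO libraries lay on both sides of the narrow WT range. Its log2 fold change was 0.06 (SE 0.13, 95% interval -0.23 to 0.35, edgeR adjusted p = 0.892), the smallest of the 9, and the sign changed to -0.02 without sKO 1 and -0.03 without sKO 2.

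Over the 9 genes the 95% intervals, not adjusted for the number of genes, ran from 0.850-fold to 1.47-fold. Counting error was 1.54% to 4.35% of a gene's mean count, while coefficients of variation were 1.49% to 13.9% in WT and 2.76% to 20.0% in sKO. For Sox9, Wt1, Fshr and Rhox5 the sKO libraries spread several times more than the WT libraries. For Gata1, Gata4, Dmrt1 and Nr5a1 the spread was alike in both groups, and for Sox8 it was wider in WT.

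**Figure D2:**
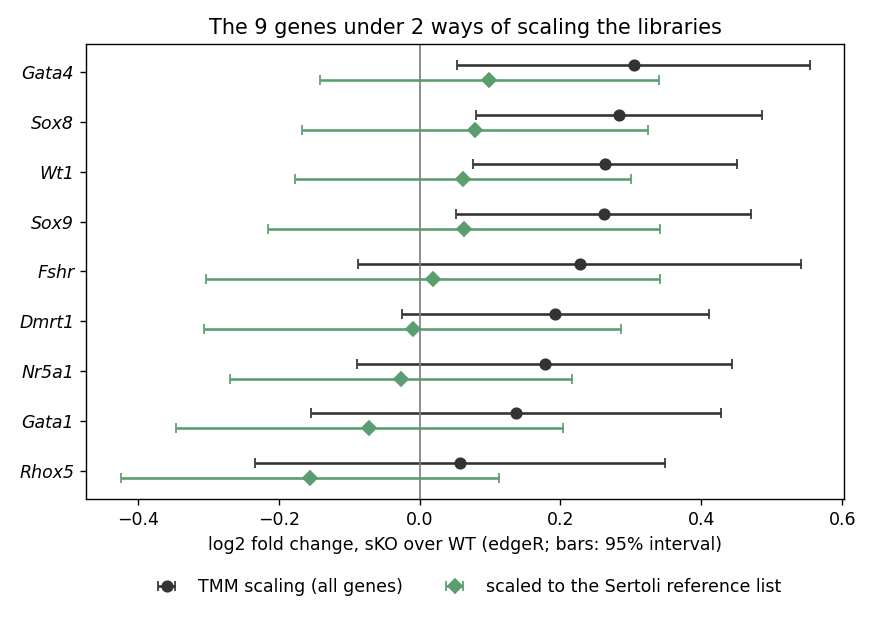
Log2 fold change of sKO over WT (horizontal axis) with its 95% interval for each of the 9 genes (vertical axis), from edgeR, with libraries scaled by TMM over all genes (black circles) and scaled to 22 other Sertoli genes (green diamonds). Under TMM the estimates run from 0.06 for Rhox5 to 0.30 for Gata4, and under Sertoli scaling from -0.16 to 0.10, with 0 inside all 9 intervals and the sign of Gata1, Dmrt1, Nr5a1 and Rhox5 reversed.

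Other Sertoli genes differed by about as much as the 9 regulators. All 22 genes of the Sertoli reference list had positive estimates (median log2 fold change 0.21), against 55.3% of all tested genes, and 0 were called by edgeR. At an unadjusted p under 0.05, 7 were higher and 0 lower, against 5.06% and 8.54% of all tested genes. Their summed level was 8886, 9674 and 9858 CPM in WT 1 to 3 and 11312, 12112 and 10272 CPM in sKO 1 to 3. The most significant were Mro (log2 fold change 0.33, edgeR adjusted p = 0.113), Gstm6 (0.35, adjusted p = 0.195) and Aard (0.26, adjusted p = 0.277). When libraries were scaled to the geometric mean of this list, the median over all tested genes moved from 0.03 to -0.17, and that of the 9 regulators from 0.23 to 0.02. Sox9 then had a log2 fold change of 0.06, Sox8 0.08, Wt1 0.06, Gata4 0.10 and Fshr 0.02, while Gata1 had -0.07, Dmrt1 -0.01, Nr5a1 -0.03 and Rhox5 -0.16. Under that scaling 0 of the 9 had an unadjusted p under 0.05, and the smallest edgeR adjusted p was 0.513. Rhox5, the lowest of these estimates, stood at 42.1, 40.9 and 39.7 scaled CPM in WT 1 to 3 and at 38.4, 39.7 and 32.0 in sKO 1 to 3, with WT 3 and sKO 2 level.

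Markers of spermatocytes, the germ cells in meiosis, moved the other way. They summed to 2705, 1804 and 1591 CPM in WT 1 to 3 and to 834, 878 and 1362 CPM in sKO 1 to 3. All 11 were detected; of the 10 tested, edgeR called 3 lower and 0 higher, with a median log2 fold change of -0.87. The 3 were Spo11, which makes the DNA breaks of meiosis, Ybx2 and Tex101. Each of these calls was lost without WT 2, sKO 1 or sKO 2, with limma-voom and with the replicate number as a block, where 0 of the 10 were called (smallest adjusted p = 0.137, 0.0901, 0.170, 0.0516 and 0.0895) and 6 were lower at an unadjusted p under 0.05. The sums did not overlap between the groups. Within the groups too, the libraries with most spermatocyte signal, WT 1 and sKO 3, had the lowest Sertoli reference sum. Stromal markers were also lowest in those libraries, at 2377 and 2167 CPM against 3008 to 3874 CPM in the other 4. CPM are shares of a library, so the levels of cell types within it are not independent, and the part of the spermatocyte level in the Sertoli estimates was not tested. Summed markers of peritubular myoid cells (681 to 867 CPM in WT, 756 to 1235 CPM in sKO), macrophages (91.4 to 129 and 109 to 155 CPM), endothelium (83.9 to 130 and 101 to 139 CPM) and adipose tissue (10.3 to 39.7 and 10.5 to 35.5 CPM) overlapped between the groups.

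**Figure D3:**
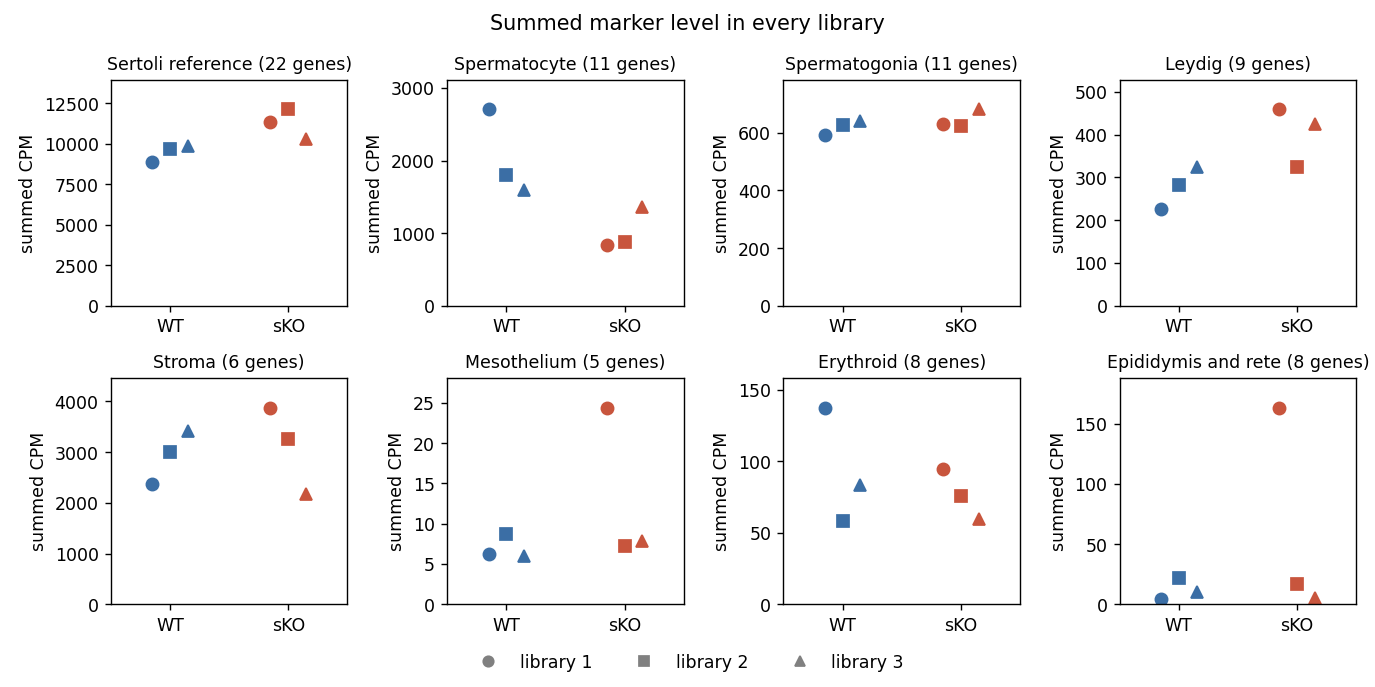
Summed CPM (linear axes from 0) of the marker lists of 8 cell types in each WT (blue) and sKO (red) library. The Sertoli reference sum is higher in every sKO library (10272 to 12112 CPM) than in every WT library (8886 to 9858 CPM), the spermatocyte sum is lower (834 to 1362 against 1591 to 2705 CPM), and sKO 1 stands apart in the epididymal (163 CPM) and mesothelial (24.4 CPM) sums.

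The profiles of the 9 regulators over the libraries were alike in part. Relative to the mean of the WT libraries (difference in log2 CPM, prior count 2), the median of the 9 was -0.03, 0.01 and 0.02 in WT 1 to 3 and 0.17, 0.30 and 0.14 in sKO 1 to 3. In sKO 2 all 9 were above the WT mean, in sKO 1 8 of 9 (all but Fshr) and in sKO 3 7 of 9 (all but Gata1 and Rhox5). Sox8, Gata1, Gata4, Nr5a1 and Rhox5, so 5 of the 9, had their lowest WT value in WT 1 and their lowest sKO value in sKO 3, as the Sertoli reference sum did. For Sox8, WT 1 and WT 3 were nearly equal. For Rhox5 the WT values differed by no more than counting error gives (coefficient of variation 1.93% against 3.89% from counting). Sox9 and Dmrt1 were highest in sKO 3, at 0.39 and 0.32 above the WT mean, as was Wt1 at 0.31. This grouping was made after the values were seen and was not tested.

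**Figure D4:**
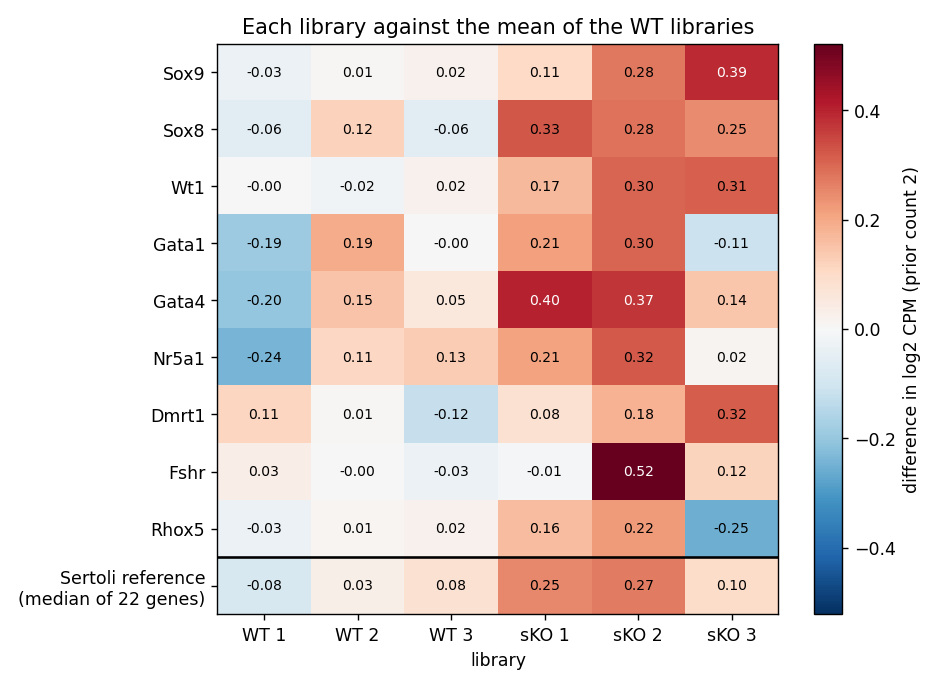
Difference of each library (columns) from the mean of the WT libraries, in log2 CPM with a prior count of 2, for the 9 genes and for the median of the 22 Sertoli reference genes (bottom row); red is higher and blue is lower. In sKO 3 the colours split, from 0.39 for Sox9 to -0.25 for Rhox5, whereas in sKO 2 all 9 values are positive.

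By the closeness of profiles, the genes most like the mean of the 9 included Mpp3, Sema4g, Rad9a and Scrn1. The measure was the root mean square difference in log2 CPM over the 6 libraries, after centring each gene, among 14562 genes whose mean reached 1 CPM. Their differences were 0.02, 0.02, 0.02 and 0.03. The 9 genes themselves lay 0.07 (Sox8) to 0.14 (Rhox5) from their own mean profile. Mpp3, a membrane scaffold protein, stood at 54.4, 59.1 and 58.1 CPM in WT and at 63.5, 72.0 and 62.7 CPM in sKO. These genes were picked for likeness out of many, so their likeness is a description.

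Levels of different genes were compared per kilobase of exon (GENCODE M21, the union of a gene's exons, on GRCm38, which is not the build of the counts). In WT the order of mean levels was Dmrt1 87.7, Rhox5 50.5, Nr5a1 44.4, Wt1 36.5, Gata4 35.6, Gata1 33.9, Sox9 26.7, Sox8 24.5 and Fshr 12.1 CPM per kb. Rhox5 thus had the second place despite its low count, because its union of exons is short (0.754 kb against 2.36 to 6.20 kb for the others). That place depends on the annotation, since the RefSeq promoter window of Rhox5 lies 50234 bases upstream of the GENCODE gene start. Over WT and sKO together, the range of Rhox5 overlapped that of Nr5a1. The WT ranges of Wt1 and Gata4, of Gata4 and Gata1, and of Sox9 and Sox8 overlapped, so these neighbours did not differ beyond their spread. The ranges of the other neighbours did not overlap in WT. In sKO only Dmrt1, at the top (92.4 to 109 CPM per kb), and Fshr, at the bottom (12.0 to 17.4), were clear of their neighbours in this order.

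Among relatives of the 9 genes, the Sox family list with Sry had 20 genes, of which 15 were tested and 0 called. Sox30, a germ cell factor of spermatid development, had the smallest p, at 27.9, 21.9 and 16.3 CPM in WT and 7.63, 8.96 and 15.7 CPM in sKO (log2 fold change -1.03, edgeR adjusted p = 0.122). Of 8 Gata and Zfpm genes, 7 were tested and 0 called; Gata6 had a log2 fold change of 0.23 (edgeR adjusted p = 0.359) and the GATA cofactors Zfpm1 and Zfpm2 had 0.09 and 0.04. All 8 Dmrt genes were tested, and 1 was called. Dmrtc2, a germ cell gene of male meiosis, fell from 76.0, 64.2 and 53.5 CPM in WT to 28.2, 26.6 and 41.0 CPM in sKO (edgeR log2 fold change -1.02 with SE 0.18, adjusted p = 0.0314). That call was lost without WT 1, WT 2, sKO 1 or sKO 2 (adjusted p = 0.0670, 0.157, 0.109 and 0.178), with limma-voom (0.0583), with the replicate number as a block (0.135) and without both libraries numbered 1. Dmrt1 and Dmrtc2 thus had estimates of opposite sign, apart from Dmrt1 under Sertoli scaling; the difference between them was not tested.

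Nr0b1 (DAX1), which represses NR5A1, stood at 68.0, 85.1 and 76.9 CPM in WT and 90.9, 91.8 and 89.3 CPM in sKO (log2 fold change 0.24, edgeR adjusted p = 0.321), and 0 of 4 Nr5a and Nr0b genes were called. Of 14 Rhox cluster genes on the X chromosome 8 were tested and 0 called, also without adjustment. Rhox8, another androgen-responsive Sertoli gene, varied from 109 to 220 CPM in WT and from 134 to 291 CPM in sKO. It was highest in WT 1 and sKO 3, where Rhox5 was lowest in its group, although the WT values of Rhox5 differed by no more than counting error. Rhox2a and Rhox2h belong to near-identical copies whose reads the counting may split. Lhcgr, the luteinising hormone receptor of Leydig cells, stood at 12.2, 13.1 and 21.7 CPM in WT and 21.5, 20.3 and 17.4 CPM in sKO (log2 fold change 0.33, edgeR adjusted p = 0.535), and Tshr was too low to be tested.

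Of 13 other hormone receptors of Sertoli cells edgeR called 0, and 1 was higher at an unadjusted p under 0.05. That was Thra, the thyroid hormone receptor alpha, at 188, 233 and 222 CPM in WT and 263, 277 and 232 CPM in sKO (log2 fold change 0.26, edgeR adjusted p = 0.314). Downstream of FSHR, 0 of 21 genes of the cyclic AMP pathway were called. Without adjustment, 3 were higher and 0 lower, against 5.06% and 8.54% of all tested genes. The 3 were Prkar2b (log2 fold change 0.42, edgeR adjusted p = 0.189), Prkar2a (0.25, adjusted p = 0.291) and Prkacb (0.24, adjusted p = 0.321), which encode subunits of protein kinase A. Each had every sKO library above every WT library, which is likely in genes picked for a small p. With Adcy9 (log2 fold change 0.11, edgeR adjusted p = 0.635), 4 of the 21 genes did, against 9.58% of all tested genes. Of the other subunits in the list, Prkaca had 0.06 (adjusted p = 0.837) and Prkar1a 0.04 (adjusted p = 0.872). The median of the pathway list was 0.06.

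Among 20 genes that respond to follicle-stimulating hormone or androgen (Rhox5 included), edgeR called 1 lower and 0 higher, with a median log2 fold change of 0.16. Cyp19a1, the aromatase that makes oestrogen and that is also found in germ cells, fell from 45, 34 and 13 counts in WT 1 to 3 to 2, 2 and 7 counts in sKO 1 to 3 (log2 fold change -3.03, SE 0.58, edgeR adjusted p = 0.0393). This call too was lost without WT 1, WT 2, sKO 1 or sKO 2 (adjusted p = 0.102, 0.159, 0.123 and 0.188), with limma-voom (0.0774), with the block (0.149) and without both libraries numbered 1. The immediate early gene Nr4a1 stood at 18.7, 16.1 and 14.8 CPM in WT and at 22.3, 24.8 and 58.9 CPM in sKO. Its groups did not overlap, and sKO 3 stood far above the rest (log2 fold change 1.10, edgeR unadjusted p = 0.0226, adjusted p = 0.257). Inhbb, an inhibin and activin subunit, had a log2 fold change of 0.24 (edgeR adjusted p = 0.296).

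Of 19 tested partners of sex determination edgeR called 0. Without adjustment, 4 were higher and 0 lower, against 5.06% and 8.54% of all tested genes. They were Fgfr2, the receptor for FGF9 (log2 fold change 0.39, edgeR adjusted p = 0.283), Nr0b1, Dhh, the hedgehog signal of Sertoli cells (0.21, adjusted p = 0.354), and Amh, the hormone that removes the Müllerian ducts (0.32, adjusted p = 0.355). Sry was too low to be tested. On the ovarian side, which SOX9 and DMRT1 hold down in the male gonad, 0 of 7 tested genes were called, also without adjustment, and Foxl2 was too low to be tested. Of 21 tested genes known as targets of the 9 factors (Fshr included), 0 were called and the median was 0.21. Amh, Cldn11, Cst9, Dhh and Inha of this list are also in the Sertoli reference list. Without adjustment, 5 of the 21 were higher and 0 lower, against 5.06% and 8.54% of all tested genes. The smallest p belonged to the Leydig enzyme Cyp17a1, at 13.0, 26.2 and 11.8 CPM in WT and 80.2, 25.9 and 75.2 CPM in sKO (edgeR adjusted p = 0.249). It was followed by Ret (log2 fold change 0.30, adjusted p = 0.289) and by Star, which moves cholesterol into mitochondria (1.27, adjusted p = 0.319). Star stood at 27.9, 36.6 and 33.1 CPM in WT and at 58.3, 42.6 and 134 CPM in sKO, with sKO 3 far above the rest.

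**Figure D5:**
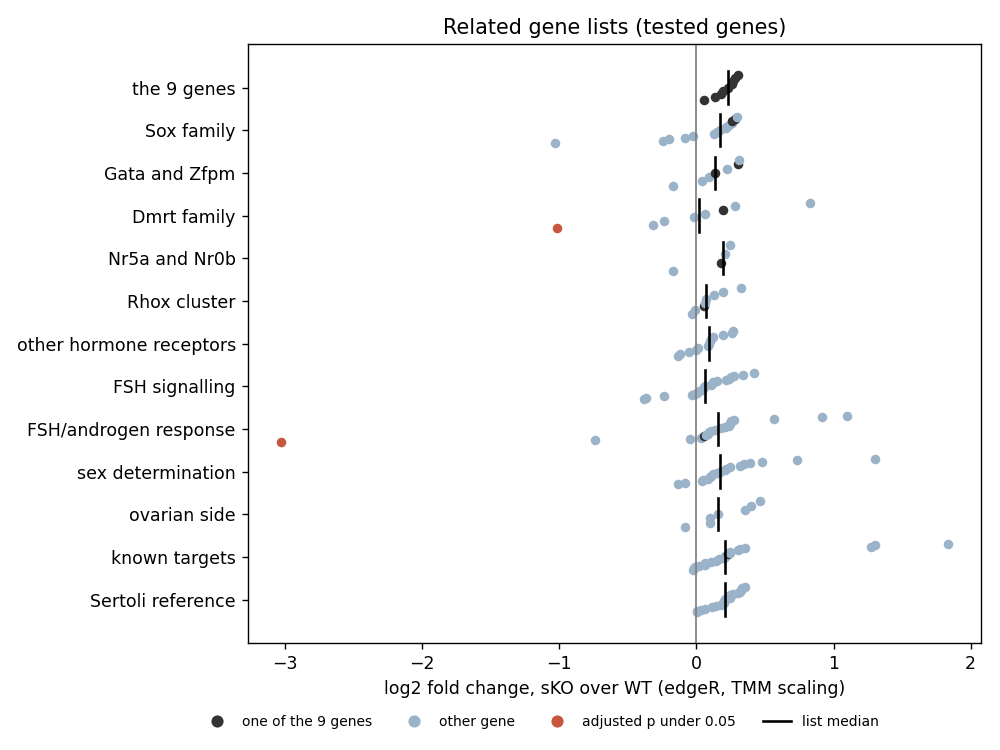
Log2 fold change of sKO over WT (TMM scaling, horizontal axis) of every tested gene in the 9 regulators and 12 related lists (vertical axis); black points are the 9 regulators, red points have an edgeR adjusted p under 0.05, and black bars are list medians. The red points are Dmrtc2 at -1.02 and Cyp19a1 at -3.03, and the medians drawn lie between 0.02 and 0.23; the list of glycoprotein hormone receptors, with 2 tested genes and a median of 0.28, is not drawn.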

How the data were processed

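The authors deposited 1 table of raw counts, with a row per gene symbol and a column per sample. The submitters' processing notes name Trim Galore, HISAT2, featureCounts and genome build mm39; versions, annotation, strand setting and the treatment of multiply matching reads are given by none of these sources. Columns headed con and scKO were read as WT and sKO and matched by replicate number.

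The main test was that of edgeR 4.0.16 (R 4.3.3; filterByExpr, TMM factors, robust quasi-likelihood F test without covariates, Benjamini-Hochberg adjustment over 18860 genes). Standard errors (SE) were derived from the F statistic. Alternatives used limma 3.58.1 (voom), the DESeq2 1.42.0 test, and size factors of the DESeq2 type (RLE) computed in edgeR. Others used no low-count filter, a replicate block, other scalings and left-out libraries. The scripts were tested on simulated data. The 9 genes, the lists and the tests were chosen with earlier results of these data known. Genes of related lists are named where called, or else by smallest p, up to 3 a list, or, outside that rule, after their values were seen. Some genes that fall under these rules are not reported here.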

Additional observations from a re-analysis of the deposited data

How the results depend on the processing

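None of the 9 genes was called by edgeR, DESeq2 or limma-voom under any of the 14 alternatives, where the smallest adjusted p was 0.151 (Gata4 without the low-count filter) and 4 of the 9 at most had an unadjusted p under 0.05. Over the 126 estimates (9 genes under 14 alternatives), 118 kept their direction. With libraries scaled to the Sertoli reference list, Gata1 (-0.072), Dmrt1 (-0.010), Nr5a1 (-0.026) and Rhox5 (-0.16) reversed and the median of the 9 was 0.018. Without both libraries numbered 1, Gata1 (-0.0047) and Rhox5 (-0.028) reversed, and the leave-one-out range of Rhox5 was -0.031 to 0.157. The counts of called genes over the whole table moved more. From 6 higher and 240 lower they went to 56 and 714 with DESeq2, 0 and 15 with limma-voom, 154 and 992 without the low-count filter, 2 and 475 with Sertoli scaling and, for lower, 155 without both libraries numbered 1. Leaving out each library gave 0 to 31 higher and 0 to 624 lower. Where edgeR called 0 in both directions (without WT 2, sKO 1 or sKO 2), 1102, 431 and 503 genes were higher and 1662, 1410 and 1221 lower at an unadjusted p under 0.05, and limma-voom had 946 higher. With the replicate block edgeR called 0 higher (605 unadjusted) and 21 lower. The deviations of same-numbered libraries correlated at -0.34, 0.12 and -0.28. Deviations taken within each group make some correlations between WT and sKO libraries negative under any pairing. These values therefore cannot decide whether the numbers pair the libraries, and such pairing was not tested otherwise.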
